A study of Caenorhabditis elegans with 2 samples.

Results

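The peaks described here are those of the DNA-binding protein DMD-6 whose summits lay in the 2 piRNA clusters of chromosome IV of Caenorhabditis elegans. A peak was a member when its summit, the position of highest signal, lay on chromosome IV from 4.5 to 7 Mb (the proximal cluster) or from 13.5 to 17.2 Mb (the distal cluster), on the assembly ce11 (WBcel235). Of the 7338 peaks of the main list, 235 were members, 141 in the proximal and 94 in the distal cluster, and 836 others lay on the rest of chromosome IV. Within that list the rule used position alone, so signal, replicate support and the place of a summit relative to genes were free to vary among its peaks. Every peak of the list, in the clusters or not, had already passed the authors' threshold on reproducibility between replicates.

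The worms were of strain RJP5356, which carries the allele rp168, a CRISPR insertion of GFP, AID, TEV and 3xFLAG in dmd-6 on chromosome IV itself. They were bleached, held as starved L1 larvae for synchrony and collected whole as L4 larvae at 48 hours, with the sex not recorded. Chromatin was sonicated and immunoprecipitated with an antibody against GFP (another field of the labels names dmd-6 as the antibody), in 2 biological replicates of 1 group that share the tag. There was no second condition, and the control experiment that the labels name was not used here. The lists of the replicates held 6533 and 4653 peaks, of which 215 and 161 had their summits in the clusters. A whole worm mixes all tissues, so binding in more cells and more binding in each cell cannot be told apart. The intervals given are exact and cover the counting of summits, peaks or genes only; summits along a chromosome are not independent samples, and with 1 group no test across samples was possible.

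In C. elegans the piRNAs are 21U-RNAs, small RNAs of 21 bases that begin with uridine and are bound in the germ line by the Piwi protein PRG-1, which guides silencing of foreign and transposon sequence. Most are made from separate tiny genes in these clusters, each with its own promoter, marked by a conserved sequence with the core TGTTTCA a little upstream of the start, and are transcribed by RNA polymerase II with factors such as PRDE-1 and SNPC-4. The genes lie in AT-rich sequence between, and within introns of, ordinary protein-coding genes. DMD-6 is a DM-domain protein, of a family whose founding members, Doublesex in Drosophila and MAB-3 in the worm, act in sexual differentiation.

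The piRNA genes beside the strongest peaks with a summit in a piRNA promoter window, and outside any coding window, show what such a promoter looks like. Each is given on its own strand, with 60 bp of upstream sequence, in RefSeq sequence of WBcel235. Capitals mark the 21U-RNA at the right end and, where present, TGTTTCA upstream of it. They are 21ur-865 at chrIV:14594769-14594849 on the plus strand, 21ur-2469 at chrIV:13919597-13919677 on the plus strand, 21ur-8200 at chrIV:5590992-5591072 on the minus strand and 21ur-13200 at chrIV:16181035-16181115 on the minus strand.
21ur-865: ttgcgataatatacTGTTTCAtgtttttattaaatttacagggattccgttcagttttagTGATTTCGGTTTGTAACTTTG
21ur-2469: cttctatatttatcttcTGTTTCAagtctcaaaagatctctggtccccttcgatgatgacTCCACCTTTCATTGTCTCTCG
21ur-8200: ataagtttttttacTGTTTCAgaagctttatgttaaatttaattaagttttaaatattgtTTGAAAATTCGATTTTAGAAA
21ur-13200: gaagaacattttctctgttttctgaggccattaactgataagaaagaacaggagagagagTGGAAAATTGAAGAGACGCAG

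The summits of the peaks beside them, with 50 bp either side on the plus strand, are shown for comparison. Capitals mark TGATAA (or its reverse complement TTATCA), the core of GATA-factor sites, and TGTTTCA. The stretches are chrIV:14594421-14594521 for the peak at 21ur-865, chrIV:13919379-13919479 for that at 21ur-2469, chrIV:5591276-5591376 for that at 21ur-8200 and chrIV:16180938-16181038 for that at 21ur-13200. The 21ur-865 and 21ur-2469 summits lay 358 and 228 bp upstream of the piRNA start, the 21ur-8200 summit 314 bp upstream, and the 21ur-13200 summit 67 bp downstream.
peak at 21ur-865: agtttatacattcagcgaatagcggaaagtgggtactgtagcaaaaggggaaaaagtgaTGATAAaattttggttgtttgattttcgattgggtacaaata
peak at 21ur-2469: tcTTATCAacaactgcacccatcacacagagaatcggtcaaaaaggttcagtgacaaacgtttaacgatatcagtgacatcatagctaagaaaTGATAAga
peak at 21ur-8200: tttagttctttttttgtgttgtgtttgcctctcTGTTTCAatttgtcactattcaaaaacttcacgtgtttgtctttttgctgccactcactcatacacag
peak at 21ur-13200: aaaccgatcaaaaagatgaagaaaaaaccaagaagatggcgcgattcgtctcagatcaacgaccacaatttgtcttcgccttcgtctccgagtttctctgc

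DMD-6 peaks were sparser in both clusters than on the rest of chromosome IV, and most of all in the distal cluster. The rest of chromosome IV held 74.0 summits per Mb (95% interval 69.1 to 79.2), the proximal cluster 56.4 (47.5 to 66.5) and the distal cluster 25.4 (20.5 to 31.1). How much of this sequence reads can be mapped to was not measured, here or around piRNA starts, and its part in these densities was not tested. As ratios to the rest of the chromosome they were 0.762 (0.633 to 0.912) and 0.343 (0.274 to 0.425). The clusters together held 21.9% of the chromosome's summits on 35.4% of its length. The order was the same in each replicate alone, with 64.8, 50.8 and 23.8 summits per Mb in replicate 1 and 46.0, 36.4 and 18.9 in replicate 2.

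**Figure D1:**
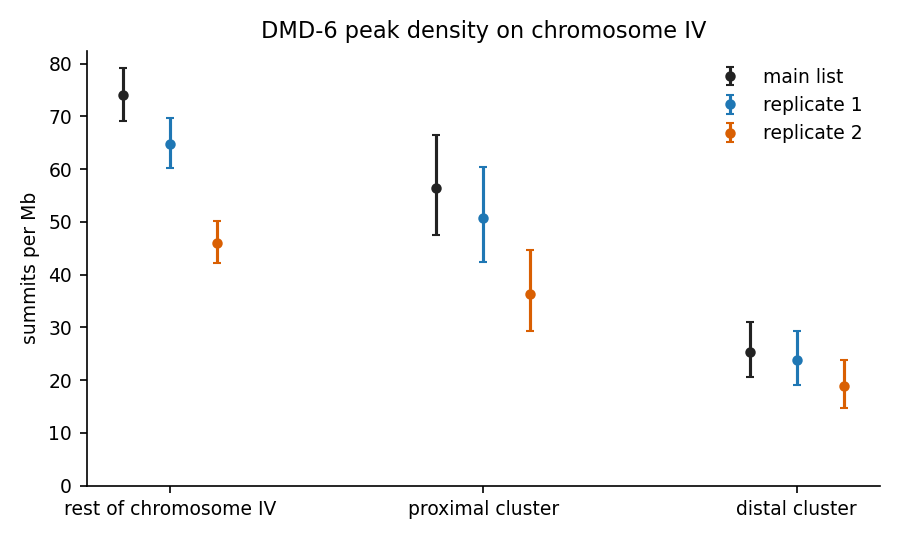
Summits per Mb on the rest of chromosome IV, in the proximal and in the distal piRNA cluster, for the main list and each replicate's own list (points, with exact Poisson 95% intervals). In all 3 lists the distal cluster is lowest, at 25.4 per Mb in the main list against 74.0 on the rest of the chromosome.

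The clusters differ from the rest of the chromosome in more than piRNA genes. They held 2816 and 11388 annotated piRNA genes, 1126 and 3078 per Mb, against 510 on the rest of chromosome IV, and 14204 of the genome's 15363. Protein-coding genes numbered 193 per Mb in the proximal and 124 in the distal cluster, against 207 on the rest of the chromosome. Counted per 100 coding genes, there were 29.2 summits in the proximal cluster, 20.5 in the distal and 35.7 on the rest of the chromosome, so the difference was smaller per gene than per Mb. The stretches at the same relative positions of the other autosomes hold 7 to 38 piRNA genes each. The stretch that corresponds to the proximal cluster had 1.14, 1.098, 1.23 and 1.11 times the density of the rest of its own chromosome on I, II, III and V, against 0.762 on IV. The stretch that corresponds to the distal cluster, which is on a chromosome arm, had a ratio of 0.650 on I, 0.992 on II, 0.876 on III and 0.547 on V, against 0.343 on IV.

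Within the clusters the summits were uneven. Of the 62 bins of 100 kb, 11 held no summit, 4 of 25 in the proximal and 7 of 37 in the distal cluster, against 2 of 112 on the rest of the chromosome. The median bin held 5 summits in the proximal cluster, 2 in the distal and 7 elsewhere. The fullest proximal bin, from 5.6 to 5.7 Mb, held 18 summits among 143 piRNA starts, and 15 and 14 in the replicates. The fullest distal bin, from 14.6 to 14.7 Mb, held 11 summits among 407 piRNA starts and includes dmd-6. The longest stretch without a summit ran for 261 kb in the proximal cluster, from 4822015 to 5083203, and held 361 piRNA starts; in the distal cluster it ran for 222 kb, from 16865691 to 17087606, with 475. Across bins the numbers of summits and of piRNA starts were only weakly related, with Spearman's rho of -0.08 over the 25 proximal and 0.09 over the 37 distal bins.

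Local base composition moved with these differences. Here GC content is that of the 100 bp either side of a position. No summit of chromosome IV lay where it was under 25%, which covers 6.05% of the rest of the chromosome, 8.01% of the proximal and 16.7% of the distal cluster. Where it was 40% or more, the rest of the chromosome held 136 summits per Mb, the proximal cluster 131 and the distal cluster 92.7. The proximal cluster was close to the rest of the chromosome in each band, with overlapping intervals. The distal cluster was lower in each band above 25%, for example 14.9 per Mb (7.70 to 26.0) against 63.3 (54.7 to 72.9) at 30 to 35% GC. If each band of 2.5 percentage points had the density it had on the rest of the chromosome, 160 summits would lie in the proximal and 204 in the distal cluster; the 141 and 94 found are 0.881 (0.741 to 1.04) and 0.461 (0.373 to 0.564) of those numbers. The same ratios were 0.899 and 0.482 in replicate 1 and 0.934 and 0.559 in replicate 2. Within GC bands the distal cluster was still lower and the proximal cluster was within counting error of the rest.

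**Figure D2:**
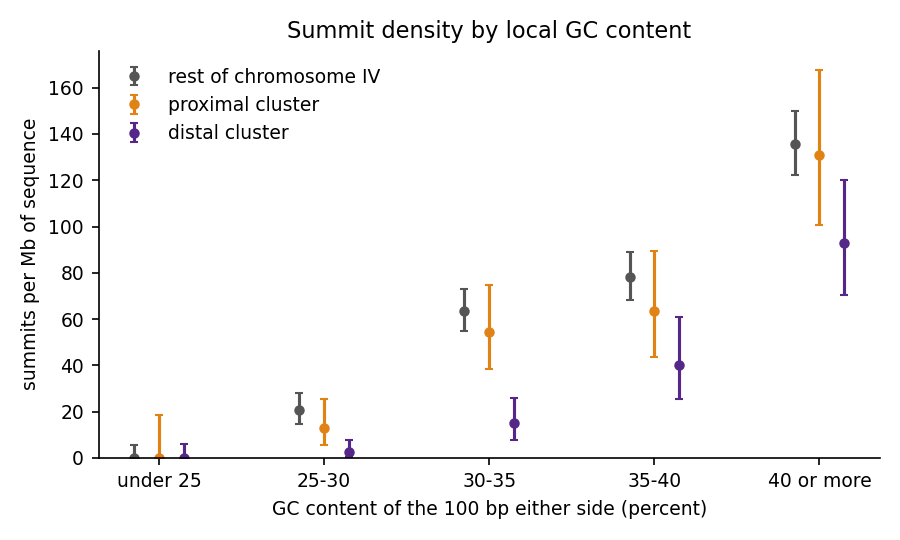
Main-list summits per Mb of sequence by GC content of the 100 bp either side, for the rest of chromosome IV and the 2 clusters (points, with exact Poisson 95% intervals). Density climbs with GC content in all 3, from 0 under 25% GC, and the distal cluster is lowest in each band above that.

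Few piRNA genes had a summit. Of the 15363 piRNA genes of the genome 1.23% had a main-list summit in their promoter window, taken as the 500 bp before and the 100 bp after the start, and of the 14204 in the clusters 140 did (0.986%, 0.830 to 1.16). The share was 2.13% in the proximal cluster (60 of 2816) and 0.703% in the distal (80 of 11388). Neighbouring piRNA genes share summits: the 140 genes share 73 summits. The 1159 piRNA genes outside the clusters had one more often, 49 of them or 4.23% (3.14 to 5.55). An even spread of each region's summits would give 4.54% outside and 2.28% inside the clusters. The level inside uses the pooled density. As 11388 of the 14204 genes lie in the sparser distal cluster, that level is too high for them and overstates the shortfall. Genes outside, pooled over all chromosomes, were near their level and genes inside were below theirs. This contrast did not hold within chromosome IV. On its rest, 11 of 510 piRNA genes had a summit, 2.16% (1.08 to 3.83), close to the proximal cluster's 2.13%. The piRNA windows there held 12 of 836 summits, 0.671 times an even spread (0.348 to 1.17). Cluster genes with TGTTTCA from 60 to 20 bp upstream, 48.0% of them, had a summit in 0.806% of cases (0.608 to 1.05). Those without it had one in 1.15% (0.921 to 1.42), and the intervals overlap. For comparison, 15% of the genome's 19973 protein-coding genes had a summit in the same window, 357 of 2340 on the rest of chromosome IV (15.3%), 64 of 482 in the proximal (13.3%, 10.4 to 16.6) and 35 of 459 in the distal cluster (7.63%, 5.37 to 10.5).

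The windows of piRNA genes cover 52.7% of the clusters, 36.7% of the proximal and 63.5% of the distal one, and held 73 of the 235 summits, 31.1% (25.2 to 37.4). That is 0.589 times (0.478 to 0.710) what an even spread gives, and 0.609 and 0.577 times in the replicates. The distal cluster has both the lower density and more piRNA-window sequence, which lowers the pooled ratio. Alone, it held 34 of 94 summits in piRNA windows, 0.569 times an even spread (0.417 to 0.736), and 0.572 and 0.495 times in the replicates. The proximal cluster held 39 of 141, 0.754 times (0.558 to 0.976), and its replicate ratios of 0.794 (0.583 to 1.03) and 0.809 (0.560 to 1.09) include 1. The windows of coding genes cover 11.6% and held 87 summits, 37.0%, or 3.19 times an even spread; on the rest of chromosome IV the figure was 2.67 times. Away from coding exons and coding windows, 51 of 143 summits lay in piRNA windows, 35.7% against 59.1% of that sequence. Within bands of GC content the shortfall in piRNA windows was no longer larger than counting error: 77.7 summits would lie there if each band had one density throughout the clusters, and the 73 found are 0.940 times that number (0.763 to 1.13). The ratio was 0.968 in both replicates. By cluster, 39 summits were found against 35.5 in the proximal and 34 against 34.8 in the distal cluster. In replicates 1 and 2 the ratio was 1.19 and 1.29 in the proximal, and 0.937 and 0.847 in the distal cluster. Each of these intervals includes 1. The sequence around piRNA starts is AT-rich, so base composition and nearness to a piRNA gene cannot be told apart here. Coding windows kept 2.85 times (2.37 to 3.35) the number for their GC content.

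Close to the piRNA start the shortfall was deeper. Within 50 bp of a start there were 2 summits in 1.02 Mb of sequence, 1.95 per Mb (0.236 to 7.05), and replicates 1 and 2 had 3 and 0. The density was 14.8 per Mb at 50 to 100 bp, 26.7 at 100 to 200 bp, 52.2 at 200 to 300 bp and 64.7 at 300 to 500 bp, which overlaps the 62.8 found beyond 2000 bp. Around coding starts in the same clusters the order was the opposite, with 128 per Mb within 50 bp and 23.2 beyond 2000 bp. The sequence within 50 bp of a piRNA start had 28.5% GC and that beyond 2000 bp 36.7%. Given GC content, 13.6 summits would lie within 50 bp and 28.2 within 100 bp; the 2 and 14 found are 0.148 (0.0179 to 0.527) and 0.497 (0.275 to 0.817) of these. In replicate 2 the 12 within 100 bp were 0.697 times their number (0.366 to 1.18), an interval that includes 1. The pooled numbers mix clusters of different density, and each cluster alone has few summits for this comparison. Within 50 bp the proximal cluster had 2 against 5.53, a ratio of 0.362 (0.0439 to 1.28), and the distal cluster 0 against 5.54, with an upper limit of 0.654. Within 100 bp each had 7, 0.599 (0.244 to 1.203) and 0.590 (0.241 to 1.17) of the numbers for its GC content.

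**Figure D3:**
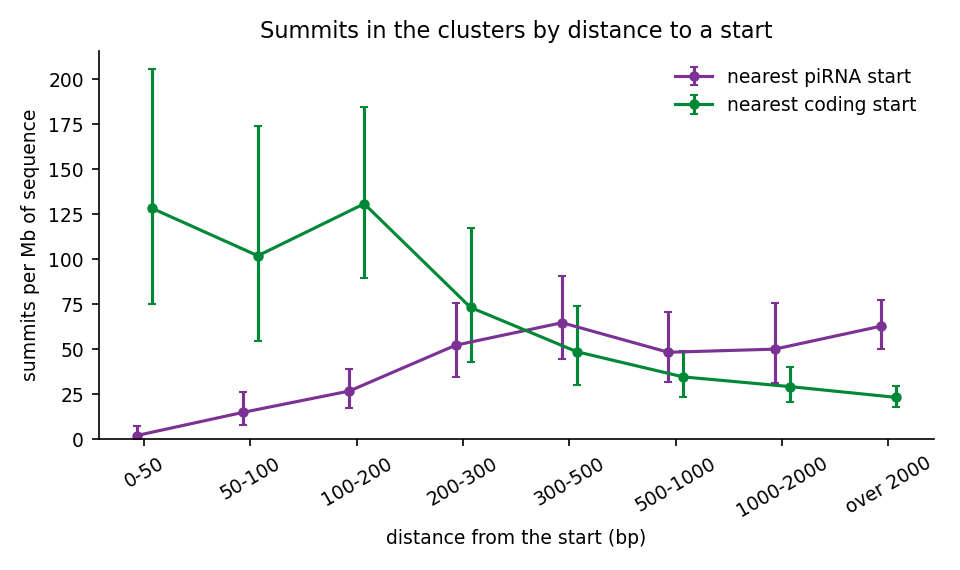
Main-list summits per Mb of cluster sequence by distance to the nearest piRNA start and to the nearest protein-coding start, upstream or downstream (points, with exact Poisson 95% intervals; each region of the genome is counted once for each kind of start). Density falls towards piRNA starts, to 1.95 per Mb within 50 bp, and climbs towards coding starts, to 128 per Mb.

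No excess of summits on the upstream side of piRNA genes was detectable. The promoter window held 73 summits and its mirror image, from 100 bp upstream to 500 bp downstream, held 75, but 48 of these lay in both because the windows overlap. In sequence of the window alone there were 25 summits and in that of its mirror image alone 27, a ratio of densities of 0.979 (0.545 to 1.75), and 1.02 and 0.891 in the replicates. At coding genes in the clusters these were 49 and 13, a ratio of 4.04 (2.16 to 8.13), and 6.04 and 5.52 in the replicates. Directly upstream of piRNA starts, from 100 bp to the start itself, there were 3 summits, 3.22 per Mb (0.665 to 9.42). The TGTTTCA element lies there. Over the 100 bp downstream the density was 12.1 per Mb (6.04 to 21.6), and the intervals overlap. From 500 to 250 bp upstream there were 29 summits, 81.9 per Mb (54.8 to 118). From 250 to 500 bp downstream there were 55.6 per Mb (34.4 to 85.0), again with overlapping intervals. The 2 upstream counts were 3 and 29 in replicate 1, and 2 and 18 in replicate 2.

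Over both clusters together, sequence with more piRNA genes around it held fewer summits per Mb. Where no piRNA start lay within 1000 bp, the clusters held 59.7 summits per Mb, and where there were 11 or more, 10.5 per Mb (8 summits). Intermediate counts gave intermediate densities, and the replicates showed the same order from 54.2 to 11.8 and from 41.6 to 5.26 per Mb. The pooled values mix clusters of different density. In the distal cluster alone the densities were 45.5, 33.2, 21.2, 21.8 and 10.7 per Mb for 0, 1 to 2, 3 to 5, 6 to 10 and 11 or more starts. In the proximal cluster they were 70.01, 42.9, 53.2 and 41.2 per Mb for the first 4 of these, with no ordered fall after the first, and 0 summits in the 0.0127 Mb with 11 or more. For the 8 summits among 11 or more starts, 12.3 would be found at equal density within GC bands, a ratio of 0.650 (0.283 to 1.26) that includes 1.

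**Figure D4:**
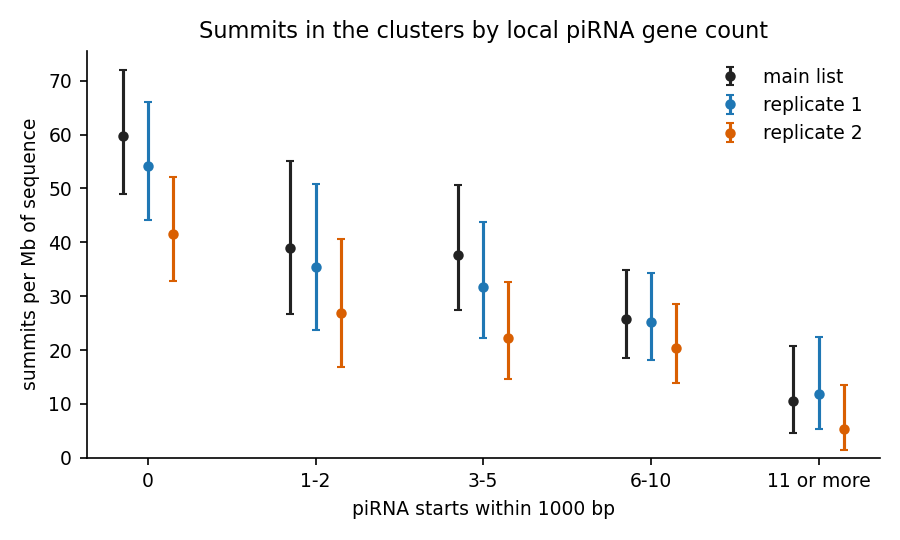
Summits per Mb of cluster sequence by the number of piRNA starts within 1000 bp, for the main list and each replicate (points, with exact Poisson 95% intervals). The main list goes from 59.7 per Mb with no piRNA start near to 10.5 per Mb with 11 or more.

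The peaks that were present in the clusters had median signals and replicate support at or above those of the rest of chromosome IV. The signal, the authors' own peak value, had a median of 162 in the clusters (range 3.30 to 1634), 149 in the proximal and 192 in the distal cluster, against 140 on the rest of chromosome IV. The median in the clusters was 1.16 times that on the rest of the chromosome; the replicates' own lists gave 1.15 and 1.05. Both replicates had an overlapping peak for 151 of the 235 members, 64.3% (57.8 to 70.4), against 58.5% of the whole list and 56.3% (52.9 to 59.7) on the rest of the chromosome. A peak of replicate 1 alone was overlapped by 50 others and one of replicate 2 alone by 6, and 28 had no counterpart. Where both had a peak, their signals had a Spearman's rho of 0.888 over the 151 members. A weak summit beside a strong one can count with the same replicate peaks, so some of these pairs of values are repeated. With an overlap of at least 50% of the peak, 59.6% of members (53 to 65.9) were in both replicates. The rest of the chromosome was not compared at that setting. The 1000 strongest peaks of the list included 44 members, 18.7%, while they are 13.6% of all peaks. In the longer ranked list behind the main one, 19.4% of all entries are main-list peaks, and the share in the clusters was 235 of 1145, 20.5%, close to the whole list; the ranked entries of the clusters had 0.497 times the density of the rest of the chromosome.

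By the place of the summit, 53 members lay in a piRNA window only, 67 in a coding window only, 20 in both and 95 in neither. Their median signals were 155, 166, 155 and 173, and the shares found in both replicates were 56.6%, 65.7%, 65.0% and 67.4%, with wide intervals that overlap. The lowest share was that of the 27 piRNA-only peaks of the distal cluster, 13 in both replicates (48.1%, 28.7 to 68.0). By gene structure, 144 members lay between coding genes (61.3%, on 50.6% of the sequence), 73 in an intron (31.1% on 29.5%) and 5 in a coding exon (2.13% on 17.0%). Small structural RNA genes lay beside some of them: 16 summits (6.81%) were within 200 bp of a tRNA gene, 13 of them in both replicates, against 2.27% on the rest of chromosome IV, where there were 30 tRNA genes to the clusters' 41.

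**Figure D5:**
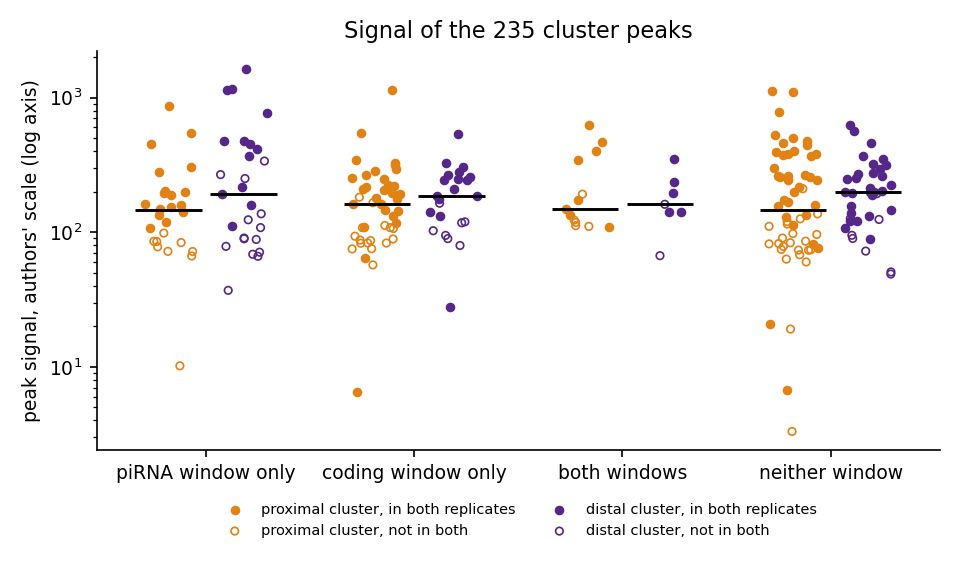
Signal of each of the 235 peaks in the clusters, on the authors' scale (log axis), by whether the summit lay in a piRNA window, a coding window, both or neither. Filled points are peaks found in both replicates, open points the others, and bars are medians; the groups overlap over most of their range, and the highest point is the peak of 1634 at 21ur-865.

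The strongest members lay in several kinds of place. The highest signal of the whole list, 1634, with 923 in replicate 1 and 683 in replicate 2, was that of chrIV:14594153-14594753, between coding genes and in the window of 21ur-865. It is within 30 kb of dmd-6, the tagged gene (chrIV:14616603-14623963), around which 12 of the 94 distal peaks lay, 9 of them in both replicates and 6 in piRNA windows. The next strongest distal peaks also had their summits between coding genes and in piRNA windows, which cover 63.5% of the distal cluster. The peak at 21ur-13200 (chrIV:16180670-16181285) had a signal of 1166, with 709 and 460.0 in the replicates. The peak at 21ur-2469 (chrIV:13919252-13919584) had 1143, with 668 and 478, and the peak at 21ur-12080 (chrIV:14414255-14414532) had 769, with 472 and 296. Each of these was in both replicates, with the rank in a replicate between 1 and 116. The distal peaks that ranked 5 to 7 in their cluster had summits outside piRNA windows.

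In the proximal cluster, where piRNA windows cover 36.7% of the sequence, the 3 strongest peaks had their summits outside such windows. They lay from 4700 to 4800 kb, near the border of the cluster, where there were only 8 piRNA starts. The first (chrIV:4749938-4750211, signal 1137, with 602 and 536 in the replicates) was in the shared promoter of Y17G9B.5 and rpl-20, a ribosomal protein gene, with the nearest piRNA start 17659 bp away. A pair at chrIV:4725458-4725748 and chrIV:4727900-4728204, with signals of 1119 and 1099, lay between coding genes beside K08F11.1 and in neither kind of window. The peak of 869 (516 and 344 in the replicates) at 21ur-8200 was in an intron of fkh-7, which codes for a forkhead transcription factor. That of 548 (321 and 229) at 21ur-13379 was in an intron of nhr-46, a nuclear hormone receptor gene, 66 bp upstream of the piRNA start. The peak of 778 lay between coding genes, 796 bp upstream of ipla-6, a phospholipase gene, and near mif-4, a homologue of macrophage migration inhibitory factor. Coding windows held the peaks of 623 at ugt-20, a UDP-glucuronosyltransferase gene, which was also in the window of 21ur-4109, and of 542 at sqd-1, which codes for an RNA-binding protein. In the distal cluster the strongest peak in a coding window was that of 540.4 (310 and 230 in the replicates) at ntl-11, of the CCR4-NOT complex that shortens mRNA tails.

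The core of the piRNA promoter element was rarer at summits than in the clusters at large. Within 100 bp of a summit, on either strand, TGTTTCA was present at 17 of the 235 members, 7.23% (4.27 to 11.3), against 25.1% of windows of the same length tiled over the clusters. On the rest of chromosome IV these shares were 6.22% and 7.59%. Among the 53 piRNA-only peaks 6 had it, 11.3%. The GATA core TGATAA was present at 97 members, 41.3% (34.9 to 47.9), against 19.0% of the tiled windows, and on the rest of the chromosome at 47.6% against 18.1%. It was present at 16 of the 20 peaks in both windows, 80.0% (56.3 to 94.3), at 26 of the 53 piRNA-only peaks, 49.1%, at 27 of the 67 coding-only peaks, 40.3%, and at 28 of the 95 in neither window, 29.5%. ACANTGT, the core of the sequence that DM-domain proteins bind, was present at 20 members, 8.51% (5.28 to 12.8), against 5.97% of tiled windows, and on the rest of the chromosome at 8.13% against 4.97%. Of the 53 piRNA-only peaks 1 had it, 1.89% (0.0478 to 10.1). ACANTGT can share its final TGT with the start of TGTTTCA. A match is a description of the sequence and not evidence of a site. The tiled windows were not matched to the summits for GC content or for distance to a piRNA start.

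Few genes that make or use piRNAs had a peak of their own. Here the window around coding starts was wider, 1000 bp before to 200 bp after, and held a summit for 19.1% of all coding genes, 444 of 2340 on the rest of chromosome IV (19.0%), 78 of 482 in the proximal (16.2%) and 45 of 459 in the distal cluster (9.80%). Of 37 piRNA pathway genes found, wherever they lie in the genome, 1 was counted (2.70%, 0.0684 to 14.2). It was tofu-1, a factor needed for 21U-RNA production, with a peak at chrV:9980791-9980957 of signal 238, and 117 and 125 in the replicates, 263 bp upstream of its start. No summit was counted for the 10 genes of piRNA transcription, such as prde-1, snpc-4 and tofu-5, for the other 12 of processing and binding, which include prg-1 and henn-1, or for the 14 of downstream silencing, such as hrde-1.

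The borders of the clusters are round positions, and the members nearest to them had signals from 77.8 to 251. The weakest of these, at the end of the proximal cluster, had no counterpart in either replicate. At the start of the proximal cluster the nearest member lay 13.7 kb inside, with a signal of 222, and the nearest peak outside lay 13.0 kb away, with 122; at its end these were 43.1 kb (77.8) and 16.7 kb (86.9). At the start of the distal cluster the nearest member lay 139 kb inside (142) and the nearest peak outside 12.7 kb away (67.9). At its end they lay 20.7 kb inside (251) and 45.4 kb outside (678). The 100 kb just outside that end held 146 piRNA starts and 11 summits, and the last 100 kb inside held 149 and 2.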

How the data were processed

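ChIP-seq peak lists of 2 biological replicates, on the assembly ce11 per the labels, were used as deposited: a thresholded list for each replicate, and a main, a conservative and a ranked list called on both together. Signal, as deposited, is a peak's strength on the authors' own scale, which differs between lists and is not explained in the labels. The deposited ranked list gives the −log10 of the IDR (irreproducible discovery rate), and every thresholded peak is at 2 or above. The summit offset in bp is another column that the authors deposited. For the aligner and the peak caller, names were not given in the sources used here; the depth in reads is unknown.

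Summits were counted against Ensembl release 115 gene models and RefSeq sequence of WBcel235, with Python 3.11.15, numpy 2.4.6, pandas 2.3.3 and scipy 1.17.1, by functions tested on simulated data. Intervals are exact at 95%: binomial for shares, Poisson for densities, conditional for ratios of densities. An overlap was at least 1 bp unless stated otherwise. A gene with several start sites was counted once. GC bands were 2.5 percentage points wide, on the 100 bp either side. The peaks named are the 10 strongest of each cluster, of which the text gives the leading ones, and the 5 strongest in a piRNA window only. The sequences printed are those of the strongest of these. The members, windows, words and the list of 38 pathway genes (prg-2 was not matched to a coding gene) were chosen with earlier results of these data known, and the GC bands, the counts per coding gene, those outside coding windows and those without the overlap of mirrored windows after seeing the data. Alternatives were the other lists, windows and borders. Files of fold-change tracks were not used here.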

Additional observations from a re-analysis of the deposited data

How the results depend on the processing

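Of 91 alternative values, 64 stayed within the range set for the reported value and 27 moved beyond it. This range was the exact interval except for signal and the pathway count. The 10 signal alternatives were judged against 1.083 to 1.229. That is 1.156 plus or minus 0.0731, the standard deviation of the ratios in the replicates, which are themselves among the alternatives. The pathway count has no interval, and 4 of its 5 alternatives were counted as staying because the count did not change. For the clusters together, the ratios of density, signal and piRNA-window summits stayed on the same side of 1, and the ratio to the mirror window did not. Within GC bands the piRNA-window ratio of the proximal cluster alone was above 1, with an interval of 0.814 to 1.42. That of the distal cluster alone was below 1, with an interval of 0.716 to 1.26. Shares and the pathway count have no direction that could reverse. The density of the clusters relative to the rest of chromosome IV was 0.512, with 0.673 among the 1000 strongest peaks, 0.615 with the borders 250 kb outwards, 0.699 per coding gene and 0.645 within GC bands; the single replicates gave 0.535 to 0.564. The ratio of signal medians was 1.16, with 1.05 to 1.15 in the single replicates, 1.02 among peaks in both and 1.23 in the conservative list. Summits in piRNA windows stood at 0.589 of an even spread, at 0.776 among the 1000 strongest, 0.236 in a window from 200 bp upstream to the start, 0.747 from 1000 bp upstream to 200 bp downstream, 0.449 at genes with the upstream element and 0.940 within GC bands. The ratio to the mirror window, overlap included, was 0.983, with 0.535 in the window from 200 bp upstream and 1.13 in that from 1000 bp upstream. piRNA genes in the clusters with a summit made up 0.986%, with 0.711% to 0.964% in the single replicates, 0.613% for peaks in both, 0.268% for the 1000 strongest, 0.225% and 2.51% in the shorter and longer windows and 0.806% with the element. Coding genes made up 10.5%, with 7.76% to 9.78%, 7.01%, 1.59%, 6.16% and 13.1% in the same order. The pathway count was 1, and 0 among the 1000 strongest. Such shares follow the number of peaks and the window. No paired analysis was possible because there is 1 group. With the depth unknown and mappability not measured, sites without a peak cannot be called unbound.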
